A study of Homo sapiens with 6 samples.

Results

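The genes examined here encode the developmental transcription factors of 12 families, and were taken as every protein-coding gene of the GENCODE annotation whose symbol is PAX, SOX, TBX, FOX, LHX, NKX, IRX, DLX, MSX, OTX, POU or the SIX-family prefix followed by its number or letter code. The rule gave 152 genes out of the 60671 genes in the count files, or out of 19911 protein-coding genes, and all 152 had a row in every library. The largest family was the forkhead (FOX) family with 51 genes, followed by SOX with 19, POU with 16, NKX with 14, TBX with 13, PAX with 9, LHX with 8, the DLX-, IRX- and SIX-family with 6 each, and MSX and OTX with 2 each. A further 12 symbols that begin with the same letters but name other proteins or carry no number, such as *FOXRED1*, *PAXIP1*, *TBXA2R* and *TBXT*, were left out.

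Expression was measured in cells of the human line K562, derived from chronic myeloid leukemia, as 1 clone that expresses the GpC methyltransferase M.CviPI fused to Lamin B1 when doxycycline is added. The 3 DMSO cultures received 0.1% vehicle and 3 EZH2i cultures received 1 µM GSK343, an inhibitor of EZH2, the enzyme of Polycomb repressive complex 2 (PRC2) that places H3K27me3. Treatment lasted 72 h in both groups, and all 6 cultures, the controls included, were given 1 µg/mL doxycycline in the last 24 h, so all were induced to express the fusion. The comparison of EZH2i with DMSO asks which transcripts change when PRC2 activity is blocked.

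These families share the DNA-binding domains that give them their names: the paired domain of PAX proteins, the HMG box of SOX proteins, the T-box, the forkhead domain, and the homeodomain of the LHX, NKX, IRX, DLX, MSX, OTX, POU and SIX-family proteins, which in LHX, POU and SIX-family proteins is joined to another conserved domain. They direct the formation of organs and cell types in the embryo, and many of their genes lie in CpG islands that carry H3K27me3 in cells where they are silent. Some forkhead, SOX and POU genes are also used by most dividing cells or by blood cells: *FOXM1* drives genes of mitosis, *FOXO3* acts downstream of growth factor signaling, and *SOX6* acts in erythroid cells.

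The libraries held 6327544 to 8987768 reads on genes in DMSO and 6926167 to 7913358 in EZH2i. Values are given as CPM, the usual counts-per-depth unit, scaled with edgeR's TMM factors. The libraries were made from the 3′ ends of polyadenylated RNA, so a read stands for a transcript end and CPM was not divided by transcript length. Of 14 genes fixed as marks of erythroid K562 cells, 13 passed the expression filter, and their summed level was 1326 to 1525 CPM in DMSO and 1605 to 1809 CPM in EZH2i, ranges that did not overlap. Of 5 fibroblast genes, 1 passed, with a summed level of 1.41 to 2.84 CPM in DMSO and 5.69 to 9.02 CPM in EZH2i, and *LUM* had no read. The lymphoid, megakaryocyte and neural lists overlapped between the groups (141.0 to 170.1, 0.626 to 2.02 and 31.6 to 39.5 CPM in DMSO against 162.6 to 181.8, 1.26 to 2.01 and 36.2 to 53.5 CPM in EZH2i), and the epithelial list was at 72.9 to 83.5 against 61.3 to 66.7 CPM; the part of these shifts in the values below was not tested. In a bulk library, fewer cells that express a gene and less RNA per cell cannot be told apart. The transcript of *EZH2* itself was at 335 ± 22.9 CPM in DMSO and 293 ± 20.6 CPM in EZH2i (SD, n = 3 each), which does not check the drug, since GSK343 blocks the enzyme and not its gene.

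Most of the developmental factors were silent or nearly silent in these cells, in both groups. No read was counted in any library on 51 of the 152 genes, or 33.6%, beside 25.2% of all protein-coding genes. Another 43 genes had 1 to 9 reads over the 6 libraries together, and 58 had 10 or more, so that 101 had at least 1 read, beside 74.8% of protein-coding genes. The expression filter, at least 10 reads in a library of median depth (1.32 CPM before TMM scaling) in 3 or more libraries, was passed by 50 of the 152 genes, or 32.9%, beside 53.5% of all protein-coding genes. A count of 0 allows up to 3 reads, or 0.334 to 0.474 CPM of all reads on genes depending on the library, so weaker expression was not detectable at this depth.

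**Figure D1:**
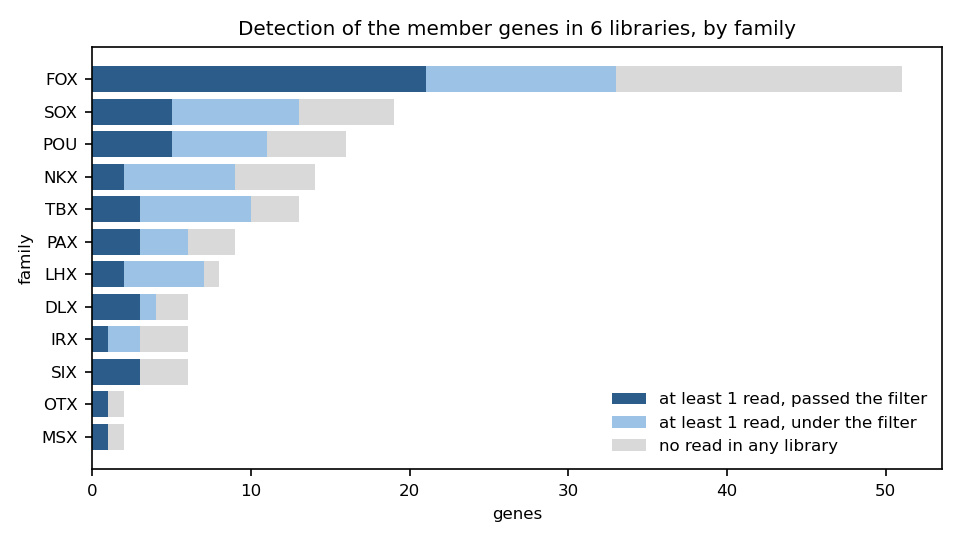
Number of genes (horizontal axis) in each of the 12 families (vertical axis), split into those that passed the expression filter, those with at least 1 read over the 6 libraries but under the filter, and those with no read. Forkhead genes make up 21 of the 50 that passed, while NKX has 2 of 14 and IRX 1 of 6.

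The genes with no read included factors that define other lineages. Among them were *PAX3* and *PAX7* of muscle and neural crest, *SOX9* and *SOX10* of cartilage and glia, *OTX2* of the forebrain, *POU5F1* of pluripotent cells and *TBX3* and *TBX20* of the heart and limb. By family, no read was seen on 18 of 51 FOX, 6 of 19 SOX, 5 of 16 POU, 5 of 14 NKX, 3 of 13 TBX, 3 of 9 PAX and 1 of 8 LHX genes, and on 3 of 6 IRX and 3 of 6 SIX-family genes. The members include 5 close copies of *FOXD4*, *FOXD4L1* with 5 reads and 4 with none. Reads with several alignments are in no gene's count, so the 0 reads on *FOXD4L3*, *FOXD4L4*, *FOXD4L5* and *FOXD4L6* are uncertain, and so are the counts of *FOXO3* and its copy *FOXO3B*.

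Slightly more of the members had a read in EZH2i libraries, as did protein-coding genes in general. At least 1 read was counted on 66, 69 and 71 members in DMSO replicates 1, 2 and 3 and on 76, 74 and 74 in EZH2i replicates 1, 2 and 3. All protein-coding genes with a read numbered 12418 to 12741 in DMSO and 13090 to 13217 in EZH2i, so that neither count overlapped between the groups, although the deepest libraries were in DMSO. Reads in EZH2i alone were found on 17 members, 11.2% of them, beside 5.96% of protein-coding genes, and reads in DMSO alone on 8 members, or 5.26%, beside 2.97%. None of the 17 had a read in all 3 EZH2i libraries, 12 of them had reads in a single library, and their totals ran from 1 to 8 reads; all 8 of the others had 1 read each. The gene with 8 reads was *FOXC1*, of mesoderm and eye, with 7, 0 and 1 reads in EZH2i replicates 1, 2 and 3. *LHX9*, of the gonad and limb, was picked out after its values were seen: it had 0, 1 and 0 reads in DMSO and 3, 6 and 3 in EZH2i, which do not overlap but stay near the limit of detection.

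Of the 50 members tested, 4 rose upon EZH2 inhibition and 0 fell at an adjusted p-value under 0.05 in edgeR's quasi-likelihood test fitted over all 12364 genes that passed the filter. That is 8.0% of the tested members, beside 4.26% of all genes tested (3.34% higher and 0.922% lower). The genes that rose were *FOXP1*, *FOXN3* and *FOXO6* of the forkhead family and *DLX4* of the distal-less family. At an unadjusted p-value under 0.05 there were 12 members higher and 3 lower, 30.0% of those tested beside 19.1% of all genes. Of 101 members with a p-value from DESeq2, it called *FOXP1*, *DLX4* and *FOXN3*, 3 higher and 0 lower. It called 3.36% of all genes with an adjusted p-value. The same 4, of 50 members tested, were called with RLE or upper quartile factors (4.28% of all genes with each) and with limma-voom (4.14%). They were also called with legacy = FALSE in the fit (4.47%) and with a replicate block (4.84%). With no filter on low counts they were 4 of 101 members tested, a smaller share than 8.0%, beside 3.54% of all genes. Requiring 10 reads in every library left *FOXP1*, *DLX4* and *FOXN3* (3.64% of all genes). Fits that left out a library called 2 to 4 members, beside 1.67%, 1.65% and 1.89% of all genes without DMSO replicates 1, 2 and 3 and 4.2%, 3.16% and 3.38% without EZH2i replicates 1, 2 and 3.

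**Figure D2:**
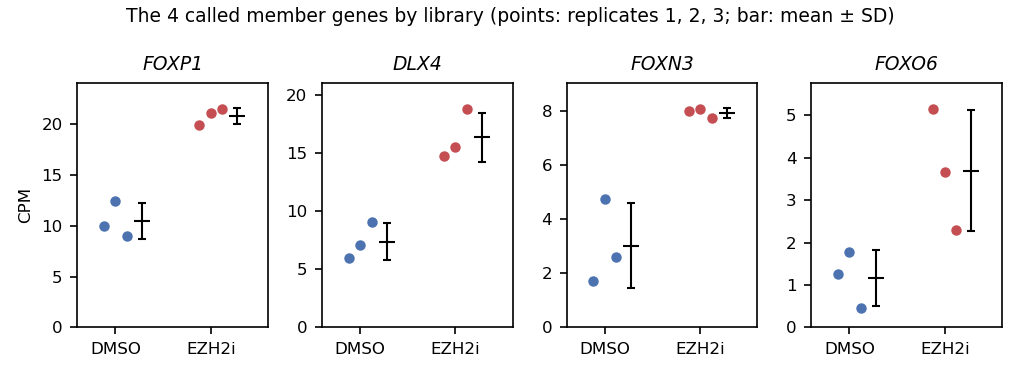
Expression in CPM (vertical axis, from 0, on a separate scale in each panel) of the 4 members called by edgeR, in the 3 DMSO and 3 EZH2i libraries (points in the order of replicates 1, 2 and 3), with the mean ± SD beside them. In each panel every EZH2i library lies above every DMSO library.

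*FOXP1* (ENSG00000114861; chromosome 3 of GRCh38, 70954693 to 71583978, minus strand), a forkhead repressor needed in B cell, heart and brain development, was at 10.0, 12.5 and 8.97 CPM in DMSO replicates 1, 2 and 3 and at 19.9, 21.1 and 21.5 CPM in EZH2i. The groups lay far apart relative to their spread, with 10.5 ± 1.80 CPM in DMSO and 20.8 ± 0.814 CPM in EZH2i (SD, n = 3 each). Its log2 fold change was 0.99 (standard error 0.166, edgeR adjusted p = 0.00249). Leaving out any one library kept the call, with an adjusted p from edgeR between 0.00187 and 0.0245. Its exons overlap those of another gene on the same strand (ENSG00000285708, 0 reads in every library) and a long non-coding RNA on the opposite strand, and reads that fall on several genes are in neither count.

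*DLX4* (ENSG00000108813; chromosome 17, 49968588 to 49974959, plus strand), a distal-less homeobox gene known from placenta and from leukemic blood cells, rose from 5.94, 7.12 and 9.08 CPM in DMSO to 14.8, 15.5 and 18.8 CPM in EZH2i. The lowest EZH2i library was above the highest DMSO library, and the means were 7.38 ± 1.58 and 16.4 ± 2.13 CPM (SD, n = 3 each). The log2 fold change was 1.13 (standard error 0.195, edgeR adjusted p = 0.0032), and the call was kept in all 6 fits that left out a library, with an adjusted p of 0.00172 to 0.0267 (edgeR). Its exons overlap those of no other counted gene.

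*FOXN3* (ENSG00000053254; chromosome 14, 89124871 to 89619149, minus strand), a forkhead repressor linked to the DNA damage checkpoint, was at 1.72, 4.75 and 2.61 CPM in DMSO and at 7.99, 8.07 and 7.73 CPM in EZH2i. The EZH2i libraries were close together while the DMSO libraries, with 11, 40 and 23 reads, were not. Its log2 fold change was 1.35 (standard error 0.296, edgeR adjusted p = 0.0154). The call was lost when DMSO replicate 1 (edgeR adjusted p = 0.0743) or DMSO replicate 3 (0.0769) was left out and kept in the other 4 fits. Exons of a long non-coding RNA on its own strand and of others on the opposite strand overlap it.

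*FOXO6* (ENSG00000204060; chromosome 1, 41361922 to 41383590, plus strand), the FOXO factor known mainly from the brain, had 8, 15 and 4 reads in DMSO and 38, 29 and 16 reads in EZH2i. In CPM these were 1.25, 1.78 and 0.454 against 5.15, 3.66 and 2.29, so that the groups did not overlap but the nearest libraries, DMSO replicate 2 and EZH2i replicate 3, were close. Only 1 DMSO library reached the cutoff of the filter, so the gene was tested because of its EZH2i level. The log2 fold change was 1.68 (standard error 0.445, edgeR adjusted p = 0.0411), and DESeq2 gave an adjusted p of 0.0753. The call was lost in 5 of the 6 fits that left out a library and was kept without EZH2i replicate 3, with an adjusted p of 0.0231 to 0.153 (edgeR).

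The start regions of the called genes are shown as the sequence at the genes that rose, with their CG dinucleotides marked; whether these carry H3K27me3 here was not tested. RefSeq promoter windows of 300 bases, 250 before and 50 after the start site on GRCh38.p14, were found for *FOXP1*, *FOXN3* and *FOXO6*; *DLX4* had no entry. Each is written 5′ to 3′ along the gene's strand in lower case, with every CG dinucleotide in capitals.
FOXP1, chr3:71583679-71583978, minus strand: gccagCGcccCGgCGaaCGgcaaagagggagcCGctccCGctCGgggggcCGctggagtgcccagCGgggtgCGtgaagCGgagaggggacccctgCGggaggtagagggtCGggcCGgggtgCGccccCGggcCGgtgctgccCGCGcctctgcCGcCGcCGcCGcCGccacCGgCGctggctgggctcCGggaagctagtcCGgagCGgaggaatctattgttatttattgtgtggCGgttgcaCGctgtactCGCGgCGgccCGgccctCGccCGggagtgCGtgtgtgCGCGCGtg
FOXN3, chr14:89619116-89619415, minus strand: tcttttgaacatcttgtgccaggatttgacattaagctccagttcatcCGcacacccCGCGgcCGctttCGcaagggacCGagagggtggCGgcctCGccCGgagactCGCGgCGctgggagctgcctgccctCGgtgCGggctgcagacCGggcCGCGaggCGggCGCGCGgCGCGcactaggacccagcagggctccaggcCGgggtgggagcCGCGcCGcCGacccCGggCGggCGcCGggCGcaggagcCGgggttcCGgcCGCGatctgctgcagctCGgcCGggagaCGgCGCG
FOXO6, chr1:41361184-41361483, plus strand: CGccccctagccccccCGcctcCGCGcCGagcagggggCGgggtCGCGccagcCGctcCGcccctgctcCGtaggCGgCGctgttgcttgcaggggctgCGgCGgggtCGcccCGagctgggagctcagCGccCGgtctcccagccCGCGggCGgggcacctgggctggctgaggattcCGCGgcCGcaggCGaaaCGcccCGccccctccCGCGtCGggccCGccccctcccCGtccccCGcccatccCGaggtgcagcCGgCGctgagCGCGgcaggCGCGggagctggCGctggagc
The dinucleotide CG, which reads the same on both strands, occurs 41 times in the window of *FOXP1* and 42 times in those of *FOXN3* and *FOXO6*. In the table of 27305 promoters of this length the median is 14, 6.52% hold 41 or more and 5.70% hold 42 or more, and 95.8% hold at least 1. GENCODE places the outermost start of *FOXN3* 16 bases, of *FOXP1* 250 bases and of *FOXO6* 488 bases from the RefSeq start. Only 108 of the 152 members, or 71.1%, had an entry in the table, so CG content was not compared between the families and other genes.

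The tested members spread around no change with a tilt to higher values. Of the 50, 32 had a log2 fold change above 0 and 18 below, with a median of 0.15, where 50% of all genes tested were above 0 and their median was -0.000215. Without DMSO replicate 1 the median of the tested members was 0.0914 and without DMSO replicate 3 it was 0.0976. The range ran from -0.44 for *SOX18* to 1.68 for *FOXO6*. Standard errors ran from 0.115 to 0.522 with a median of 0.189, against a median of 0.153 over all genes tested, so that small changes of single members could not be told from the spread between libraries. In 14 of the 50 the CPM ranges of the groups did not meet (11 higher and 3 lower in EZH2i), or 28%, beside 24.5% of all genes tested (13.3% higher and 11.1% lower). The cutoff of the filter was reached in every library by 44 members. *FOXO6* and *FOXA2* reached it in every EZH2i library but in only 1 and 0 DMSO libraries, so both were tested because of their EZH2i level. Both are among the 32 members above 0 and the 11 higher without overlap. *DLX2* reached it in every DMSO but not every EZH2i library, and *SOX4*, *FOXD3* and *PAX9* in some libraries of both groups. Counts and medians over the tested members therefore describe the genes that passed and not the families.

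**Figure D3:**
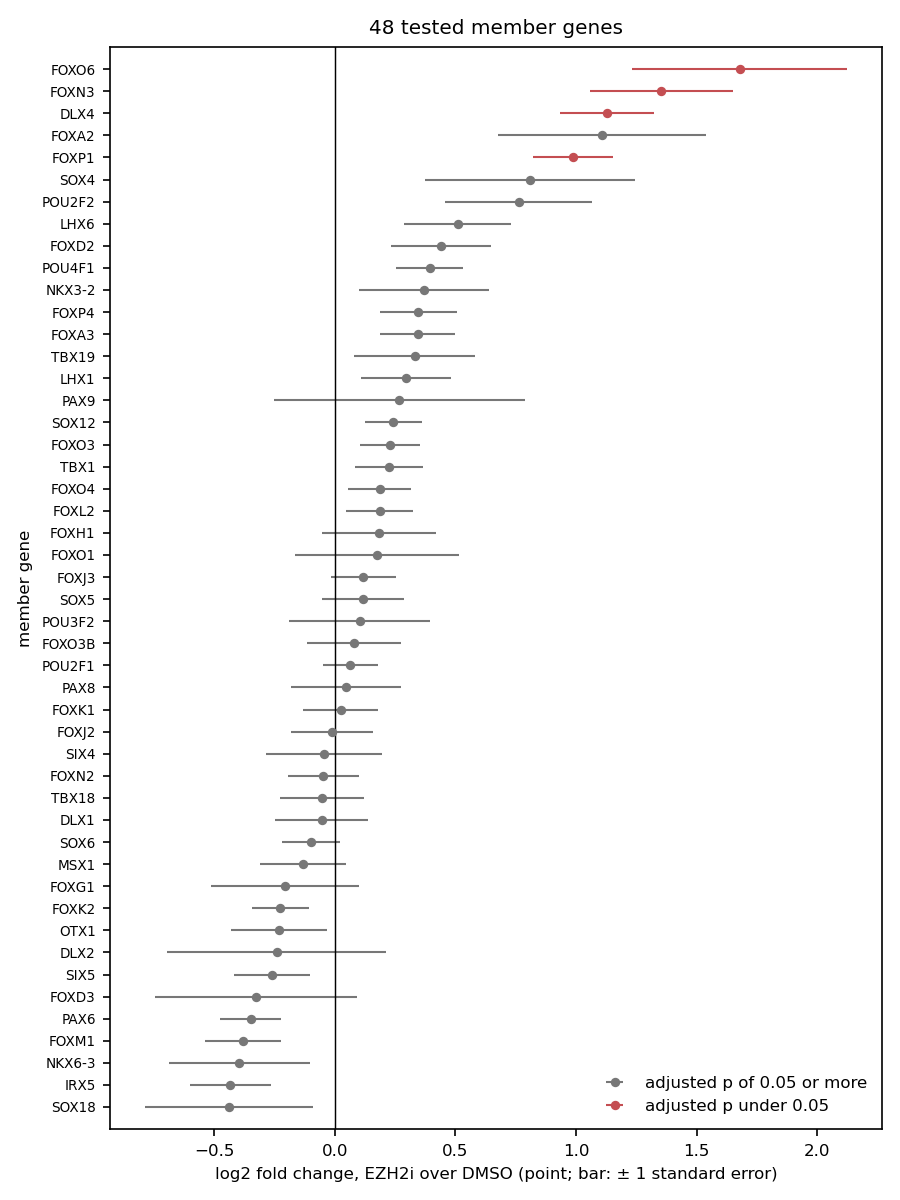
Log2 fold change of EZH2i over DMSO (horizontal axis; points, with bars of 1 standard error on each side) for 48 of the 50 members that passed the filter (vertical axis, in the order of the change). The 4 members called by edgeR are in red, at 0.99 to 1.68, and no member called lies below 0.

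In the forkhead family, 21 of 51 genes were tested, 3 rose and 18 did not pass the test. The relatives of the called genes had smaller changes, although the difference between relatives was not tested. *FOXP4*, a close relative of *FOXP1* that acts in lung and heart, was at 14.2, 17.0 and 17.3 CPM in DMSO and 24.3, 19.0 and 18.6 CPM in EZH2i, a log2 fold change of 0.35 (standard error 0.159, edgeR adjusted p = 0.244). *FOXP2*, known from speech, had no read, and *FOXP3*, of regulatory T cells, had 9 reads in all. *FOXN2* was at 24.6 ± 1.38 CPM in DMSO and 23.7 ± 3.79 CPM in EZH2i (SD, n = 3 each), with overlapping groups and a log2 fold change of -0.05.

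The FOXO factors act downstream of insulin and growth factor signaling, and the other FOXO genes had smaller fold changes than *FOXO6*, a difference that was not tested. *FOXO3* was at 63.2 ± 10.3 and 74.1 ± 5.40 CPM, *FOXO4* at 34.0 ± 4.84 and 38.8 ± 1.62 CPM and *FOXO1* at 2.28 ± 0.484 and 2.61 ± 0.498 CPM in DMSO and EZH2i (SD, n = 3 each). The groups overlapped for all of these, and their log2 fold changes were 0.23, 0.19 and 0.18, beside 1.68 for *FOXO6*. *FOXK1* and *FOXK2*, broadly expressed regulators of metabolism and autophagy, stood at 86.0 ± 1.62 and 80.6 ± 6.08 CPM in DMSO and at 87.6 ± 25.2 and 68.8 ± 9.36 CPM in EZH2i (SD, n = 3 each). The wide spread of *FOXK1* came from EZH2i replicate 1, with 60.4 CPM against 92.1 and 110.3 CPM in replicates 2 and 3, and the direction of its small change, a log2 fold change of 0.03, turned in 4 of the other fits.

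The FOXA genes, pioneer factors of endoderm and liver, were low apart from *FOXA3*. *FOXA2* had 5, 6 and 9 reads in DMSO and 11, 15 and 15 in EZH2i, groups that did not overlap. Its log2 fold change was 1.11 (standard error 0.431, edgeR adjusted p = 0.16). No DMSO library reached the cutoff of the filter, so *FOXA2* was tested because of its EZH2i level. *FOXA3* was at 19.7, 25.5 and 18.2 CPM in DMSO and 23.7, 30.1 and 26.6 CPM in EZH2i, a log2 fold change of 0.34 with overlapping groups (edgeR adjusted p = 0.242). Under the filter, *FOXA1* had 4, 7 and 4 reads in DMSO and 10, 8 and 6 in EZH2i, and *FOXD1*, a gene of kidney stroma and retina, had 0, 4 and 5 reads in DMSO and 6, 6 and 7 in EZH2i; in CPM neither overlapped. *FOXD2*, a neural crest and kidney gene, was not called but was higher in every EZH2i library, at 6.26, 7.01 and 6.36 CPM in DMSO and 9.89, 7.94 and 8.88 CPM in EZH2i (log2 fold change 0.44, edgeR adjusted p = 0.253). *FOXM1*, the activator of mitotic genes, was at 26.6, 40.4 and 30.5 CPM in DMSO and 28.3, 24.3 and 22.5 CPM in EZH2i, overlapping groups with a log2 fold change of -0.38 (edgeR adjusted p = 0.193).

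In the DLX family, whose genes pattern the forebrain, jaws and limbs, 3 of 6 genes were tested and only *DLX4* was called. *DLX1* was at 11.6 ± 2.33 CPM in DMSO and 11.1 ± 0.924 CPM in EZH2i (SD, n = 3 each), with overlapping groups. *DLX2*, its neighbor, had 29, 26 and 34 reads in DMSO and 4, 41 and 27 in EZH2i, so that EZH2i replicate 1 stood far below the other 5 libraries. *DLX3*, which lies next to *DLX4*, had 0 reads in DMSO and 0, 1 and 1 in EZH2i, and *DLX5* and *DLX6* had none.

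Of the POU genes, 5 of 16 were tested and 0 were called by edgeR or DESeq2. All 5 had a log2 fold change above 0, beside 50% of all genes tested. An unadjusted p under 0.05 (edgeR) was found for 3 of the 5, beside 19.1% of all genes tested. *POU4F1*, a factor of sensory neurons, was at 19.6, 20.7 and 21.8 CPM in DMSO and 30.5, 24.8 and 26.4 CPM in EZH2i, with no overlap (log2 fold change 0.39, standard error 0.139, edgeR adjusted p = 0.121). *POU2F2*, the B cell octamer factor, was at 2.50, 5.46 and 2.95 CPM against 5.82, 5.17 and 7.88 CPM, overlapping groups with a log2 fold change of 0.76 (edgeR adjusted p = 0.171). The broadly expressed octamer factor *POU2F1* was at 78.0 ± 3.36 and 81.7 ± 10.95 CPM (SD, n = 3 each; log2 fold change 0.06).

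**Figure D4:**
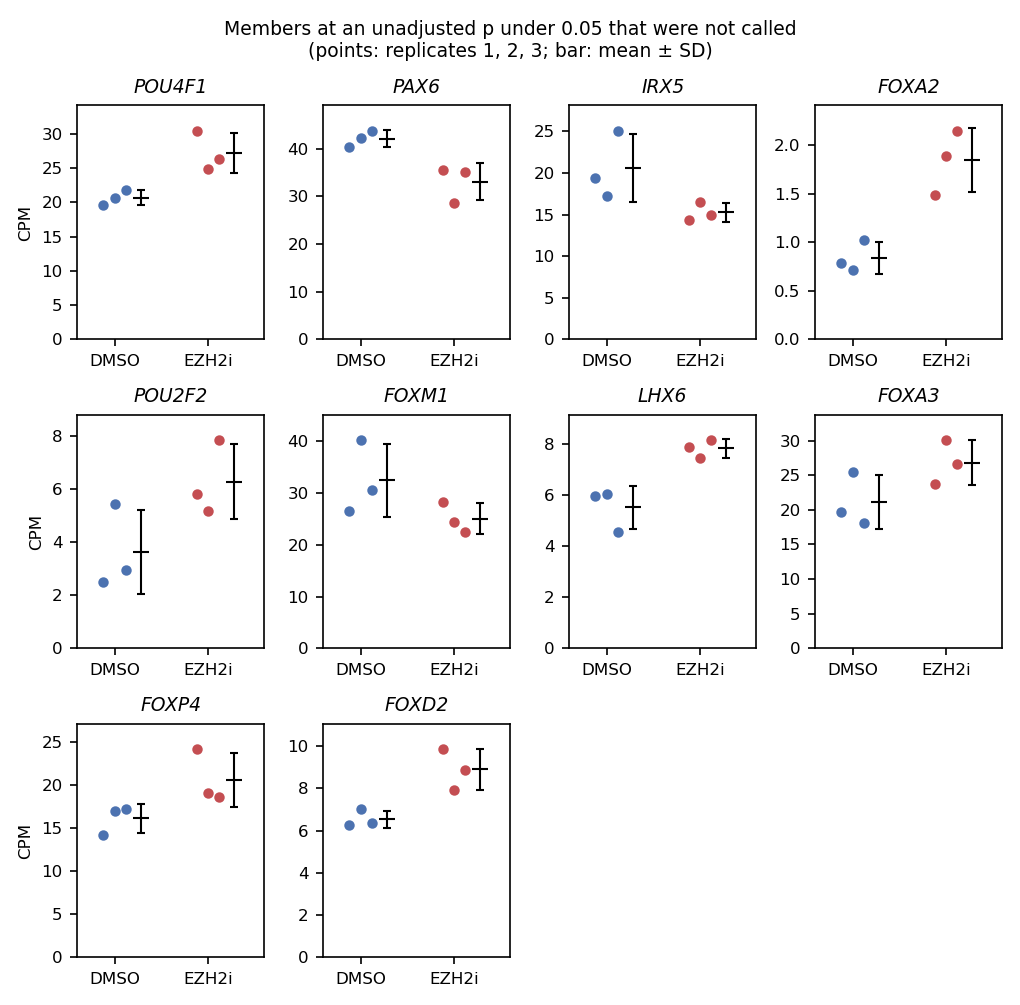
Expression in CPM (vertical axis, from 0, on a separate scale in each panel) of 10 members with an unadjusted p under 0.05 that were not called, in the 3 DMSO and 3 EZH2i libraries (points in the order of replicates 1, 2 and 3), with the mean ± SD. *PAX6*, *IRX5* and *FOXM1* have lower means in EZH2i and the other 7 higher means, and the groups overlap for *POU2F2*, *FOXM1* and *FOXA3*.

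Among members with lower values in EZH2i, *PAX6* and *IRX5* had the lowest p-values, and neither was called. *PAX6*, the regulator of eye and forebrain development, was at 40.4, 42.2 and 43.8 CPM in DMSO and 35.6, 28.6 and 35.1 CPM in EZH2i, with every EZH2i library below every DMSO library (log2 fold change -0.35, standard error 0.126, edgeR adjusted p = 0.129). Exons of *ELP4*, which was at 28.7 ± 3.91 and 24.2 ± 3.55 CPM (SD, n = 3 each), overlap it on the opposite strand, and the strand setting of the counting is not given in the sources used here. *IRX5*, an Iroquois gene of heart, eye and skeleton, was at 19.4, 17.2 and 25.1 CPM in DMSO and 14.4, 16.5 and 14.9 CPM in EZH2i, groups that lay next to each other without overlap (log2 fold change -0.43, standard error 0.167, edgeR adjusted p = 0.157). It was the only IRX gene of 6 with more than 10 reads. *PAX8*, of the thyroid and kidney, was at 6.27 ± 0.717 and 6.44 ± 1.00 CPM, and *PAX9*, of teeth and vertebrae, at 1.41 ± 1.01 and 1.63 ± 0.455 CPM (SD, n = 3 each), both with overlapping groups.

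In the SOX family 5 of 19 genes were tested and 0 were called by edgeR or DESeq2, with 0 at an unadjusted p under 0.05. *SOX12*, with *SOX4* a member of the SoxC group of neural and mesenchymal progenitors, was at 47.7, 47.7 and 48.6 CPM in DMSO and 64.9, 51.3 and 54.3 CPM in EZH2i, all higher (log2 fold change 0.24, standard error 0.118, edgeR adjusted p = 0.271). *SOX4* had 4, 10 and 12 reads in DMSO and 15, 19 and 9 in EZH2i. *SOX6*, which acts with its relative *SOX5* and in erythroid cells represses embryonic globin genes, was at 36.0 ± 1.93 and 33.6 ± 1.19 CPM, and *SOX5* at 16.2 ± 3.61 and 17.7 ± 0.543 CPM (SD, n = 3 each). Both had overlapping groups, with log2 fold changes of -0.10 and 0.12.

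The remaining families held 0 called genes by edgeR or DESeq2, and of their members only *LHX6* had an unadjusted p under 0.05. *LHX6*, of cortical interneurons, was at 5.94, 6.06 and 4.54 CPM in DMSO and 7.86, 7.44 and 8.16 CPM in EZH2i, without overlap (log2 fold change 0.51, standard error 0.222, edgeR adjusted p = 0.218). *LHX1*, of the kidney and the head organizer, was at 10.2 ± 1.25 and 12.5 ± 1.85 CPM (SD, n = 3 each; log2 fold change 0.29). *TBX1*, of the pharyngeal arches, stood at 36.9 ± 7.21 and 43.3 ± 3.46 CPM and *SIX5*, of lens and muscle, at 33.7 ± 6.86 and 28.3 ± 3.90 CPM (SD, n = 3 each). These groups overlapped, with log2 fold changes of 0.23 and -0.26. *NKX3-2*, of the axial skeleton, was at 4.79 ± 1.36 and 6.11 ± 1.20 CPM, *MSX1*, of teeth and palate, at 14.9 ± 1.55 and 13.7 ± 2.72 CPM, and *OTX1*, of the cortex, at 10.4 ± 2.01 and 8.75 ± 0.183 CPM (SD, n = 3 each). Their log2 fold changes were 0.37, -0.13 and -0.23, none past the threshold (edgeR adjusted p = 0.484, 0.746 and 0.575).

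Some of these genes lie close together, and expressed and silent members stood side by side. With gaps of at most 500 kb between members, 17 clusters held 39 of the 152 genes. In 9 of them no member passed the filter, in 2 all members did, and in 6 some did and others did not. *DLX4* and *DLX3* lie within 26.6 kb on chromosome 17, with 541 reads on the former and 2 on the latter over the 6 libraries. *FOXD2* had 353 reads and *FOXE3*, 24.4 kb from end to end with it, 1 read. The clusters of *FOXQ1*, *FOXF2* and *FOXC1*, of *FOXF1*, *FOXC2* and *FOXL1*, of *NKX2-4*, *NKX2-2* and *PAX1*, and of *DLX5* and *DLX6* had no member past the filter. No cluster held more than 1 called gene.

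Partners of these factors and other developmental regulators were described in the same way. Of 32 partner and cofactor genes, such as EYA, DACH, LDB, LMO, SSBP and TLE genes, 22 were tested, 1 rose and 0 fell (edgeR), with a median log2 fold change of 0.14. The called share was 4.55% of those tested, near the 4.26% of all genes tested, and DESeq2 also called 1 higher and 0 lower, where it called 3.36% of all genes. At an unadjusted p under 0.05 there were 7, all higher, or 31.8% beside 19.1% of all genes. The groups did not overlap in 6 of the 22 tested, all higher in EZH2i, or 27.3% beside 24.5% of all genes tested (13.3% higher). *DACH1*, *LDB1*, *SSBP3*, *TLE2* and *SKIL* were higher in every EZH2i library but were not called. Of these, *DACH1* and *LDB1*, partners of SIX-family and LIM homeodomain proteins, had log2 fold changes of 0.31 and 0.47 (edgeR adjusted p = 0.113 and 0.144).

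Of 93 developmental factors whose symbols are outside the rule, among them the T-box genes *EOMES*, *TBXT* and *TBR1*, 32 had no read, or 34.4% beside 25.2% of protein-coding genes. The test covered 27 of them, of which 2 rose and 1 fell (edgeR), or 11.1% beside 4.26% of all genes tested, with a median log2 fold change of -0.02. *EN1*, a homeobox gene of the midbrain and limb, rose from 14.1, 16.4 and 17.0 CPM in DMSO to 27.8, 24.1 and 24.6 CPM in EZH2i (log2 fold change 0.68, standard error 0.146, edgeR adjusted p = 0.0136). *PITX1*, of the hindlimb and pituitary, rose from 181.7, 147.5 and 190.6 CPM to 265.1, 239.2 and 213.1 CPM (log2 fold change 0.47, edgeR adjusted p = 0.0334). Its call was lost without DMSO replicate 1, 2 or 3 (edgeR adjusted p = 0.0933, 0.166 and 0.0557) and without EZH2i replicate 2 (0.072). *HES1*, a target of Notch signaling that represses differentiation, fell from 75.9, 53.8 and 61.2 CPM to 37.0, 36.4 and 42.3 CPM (log2 fold change -0.72, standard error 0.134, edgeR adjusted p = 0.00544). None of these groups overlapped. Without DMSO replicate 1 or without DMSO replicate 2, *HES1* was the only gene of this list called.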

How the data were processed

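RNA of 3 DMSO and 3 EZH2i cultures of a K562 clone was sequenced from its 3′ ends. Per the labels, the authors aligned reads with STAR 2.6.0c to GRCh38 and counted them with HTSeq 0.11.2; they deposited raw counts per Ensembl gene and library, not normalized or pooled. The strand setting of the counting is not given in the sources used here. The authors' deposited comparison table, which holds fold changes and p-values, was not used. GENCODE 44 (GRCh38, the same build, a later annotation) gave gene symbols, types, positions and exons.

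Rows that name no gene (reads without a feature, on several genes or with several alignments) were left out, which kept 63.6% to 67.9% of listed reads. Tests used edgeR 4.0.16 (R 4.3.3) on the whole table. Genes were kept by filterByExpr (min.count 10), scaled by TMM, and tested through estimateDisp, glmQLFit at its defaults and a two-sided glmQLFTest. Benjamini-Hochberg values covered 12364 genes, and a call is one under 0.05. CPM uses the reads on these genes. The standard error is the log2 fold change divided by the square root of F. The study's methods call the replicates biological. An exact permutation test of 3 against 3 cannot go below p = 0.1, so calls rest on the fit across all genes. DESeq2 1.42.0, limma-voom (limma 3.58.1), other normalizations, filters, thresholds and fit options, a replicate block and leaving out each library were alternatives. The fits were tested on simulated data. The read floors cover counting error only, while the SDs and standard errors also hold the spread between libraries.

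The members and lists were chosen with earlier results of these data known. Named are called members, members at an unadjusted p under 0.05, the member with the highest mean CPM in each family, members under the filter with at least 20 reads whose groups do not overlap, members with reads in every library of 1 group and none in the other (there were 0), and called genes of the partner and other developmental factor lists. Some results that these rules name are not reported here. Relatives and neighbors of these, other members given with values and partners that were not called were named after their values were seen.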

Additional observations from a re-analysis of the deposited data

How the results depend on the processing

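*FOXP1* and *DLX4* kept their calls in all 14 other fits. In place of 4 called members there were 2 at an adjusted p under 0.01, *FOXP1* and *DLX4*, a stricter threshold that gives fewer by construction, and 2 to 4 across the 6 fits that each left out a library (2 without DMSO replicate 1 and 2 without DMSO replicate 3). *FOXN3* was called in 12 of the 14 other fits and *FOXO6* in 7 of the 13 that tested it; the cause was not tested. Of 152 members, 101 had at least 1 read and 58 had at least 10.

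All genes called numbered 527, against 928 (579 higher and 349 lower) when low counts were kept, 148 at an adjusted p under 0.01 and 209 to 536 without one library. The partner list had 0 calls with at least 10 counts required in every library, a filter that tests fewer genes. The other developmental factor list, with 3 calls, had 5 without a filter, 1 at an adjusted p under 0.01 and 1 to 4 without one library.

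Among the named genes refitted under each alternative, the direction changed for *FOXK1* with limma-voom (-0.0194), with the replicate block (-0.00905) and without EZH2i replicate 2 or 3 (-0.0144 and -0.172; -0.172 to 0.235 over fits without one library), *MSX1* without EZH2i replicate 2 (-0.258 to 0.0207) and *POU2F1* without EZH2i replicate 3 (-0.0188 to 0.168), none of them called. Single libraries also weighed on other uncalled log2 fold changes. Without DMSO replicate 1 that of *TBX1* was 0.107, of *SIX5* -0.394, of *OTX1* -0.0858 and of *NKX3-2* 0.586. Without DMSO replicate 2 that of *FOXM1* was -0.192, of *OTX1* -0.351, of *NKX3-2* 0.196 and of *POU2F2* 1.19, and without DMSO replicate 3 that of *TBX1* was 0.388, of *SIX5* -0.102 and of *IRX5* -0.257. Without EZH2i replicate 1 that of *FOXP4* was 0.217 and of *SOX12* 0.139, without replicate 2 that of *SIX5* was -0.167, and without replicate 3 that of *LHX1* was 0.17. Within the fits without one library, *PITX1* was called in 2 of 6 and *EN1* in 4 of 6. The median of the tested members ranged from 0.0914 to 0.211 over all alternatives.

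Replicate numbers did not pair the libraries: the correlation of the deviations from the group means was -0.0511, -0.0175 and -0.017 for numbers 1, 2 and 3, and 0 of the libraries correlated best with its own number. With a replicate block the called members were the same 4, of 599 genes called in all.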
